A study of Homo sapiens with 6 samples.

Results

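The genes described here encode the subunits and assembly factors of the proteasome. They were taken from the deposited count table as the rows whose symbol begins with PSMA, PSMB, PSMC, PSMD, PSME, PSMF or PSMG and ends in a number, with a mean of at least 10 raw counts over the 6 libraries. The rule found 45 genes among the 36884 rows of the table. Where a symbol had several rows, the one with the highest mean was used. The last gene inside the limit was PSMG2, with a mean of 14.8 counts. The genes outside it were PSMB11, the thymus-specific beta subunit, at a mean of 0.5 counts, and PSMA8, the testis-specific alpha subunit, at 0.167. PSMB3 was not analysed here.

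RNA came from RPE1 cells, an immortalized line of human retinal pigment epithelium that is not transformed, edited with CRISPR-Cas9 so that the kinase genes LATS1 and LATS2 are inactive. All 6 libraries carry these edits, and no cells with intact LATS kinases were compared. The cells were transfected with control siRNA (3 libraries) or with siRNA against MK5, the protein kinase encoded by MAPKAPK5 (3 libraries), for 48 h. The labels call the replicates biological but do not name separate cultures, so p-values measure the spread between these libraries. Whether the edited cells are 1 clone is not given in the sources used here.

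The proteasome is the protease that degrades proteins tagged with ubiquitin. Its 20S core is a barrel of alpha and beta rings, and the protein-cutting sites lie inside on the beta subunits PSMB5, PSMB6 and PSMB7. The 19S cap recognizes ubiquitin, removes it and unfolds the substrate with a ring of ATPases. In cells that have seen interferon, the immunoproteasome subunits PSMB8, PSMB9 and PSMB10 replace the constitutive cutting subunits and the PA28 cap, made of PSME1 and PSME2, is more abundant, which favours peptides for MHC class I. Dedicated chaperones assemble the core and the base of the cap. Transcription of the subunits as a family is known to be raised by the factor NFE2L1 when proteasome activity is short.

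The control libraries and the MK5 siRNA libraries held between 27188074 and 28236773 counts each. Levels are given as CPM, that is counts scaled to the TMM-adjusted library total. Changes are log2 fold changes of MK5 siRNA over control siRNA ± SE from edgeR (n = 3 per group). A gene is said to rise or fall where edgeR's adjusted p, by Benjamini-Hochberg over all 13431 genes tested, is below 0.05. MAPKAPK5 measured 35.6, 29.05 and 31.3 CPM in the control libraries and 17.4, 14.1 and 16.2 CPM in the MK5 siRNA libraries, a fall of −1.01 ± 0.14 (adjusted p = 0.00169). Of the markers of pigment epithelium, RPE65, RLBP1 and TYR were at or near 0 in every library, and EPCAM was at 0. The keratin genes KRT8 and KRT18 of simple epithelia stood at means of 642 and 148 CPM in the controls, and both fell (adjusted p = 0.0104 and 0.00363). The epithelial cadherin gene CDH1 was near 0, at a mean of 0.124 CPM in the controls. The mesenchymal markers VIM, FN1 and CDH2 stood higher, at control means of 3811, 3324 and 409 CPM, and did not pass. The summed level of 8 pigment epithelium markers was 83.6 to 95.5 CPM in the controls and 58.4 to 66.3 CPM after MK5 siRNA. Nearly all of it came from MITF, which fell from 54.1 to 25.3 CPM (adjusted p = 0.00114), and OTX2, which was at 32.4 and 34.8 CPM and did not pass. Replicates spread with a biological coefficient of variation of 21.2%, or 4.63% for replicates 2 and 3 alone, and calls gained or lost without control replicate 1 are given beside the gene. Leaving out control replicate 1 raised the calls over all genes, from 3020 rises and 3186 falls to 4455 and 4419. A call gained in that fit is therefore not particular to the gene. In bulk RNA, fewer cells of a kind and less RNA per cell cannot be told apart.

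Most proteasome genes did not pass the test, and most of those that changed fell by less than 2-fold. All 45 members passed the filter on low counts. Of them 16 fell, 2 rose and 27 did not pass, so that 40.0% changed, where 46.2% of all genes tested did. Falls made up 35.6% of the members against 23.7% of all genes, and rises 4.44% against 22.5%. Only PSMB9 and PSMB10 changed by at least 2-fold (4.44% of the members, against 22.3% of all genes). The median log2 fold change of the members was −0.17, and that of all genes tested was 0.00. The groups did not overlap in 23 members (51.1%), 6 higher and 17 lower after MK5 siRNA, and in 60.4% of all genes. With the replicate number as a block 14 members fell and 3 rose (47.3% of all genes changed). DESeq2 gave 16 and 2 (50.9% of all genes), and without replicate 1 in both groups 27 fell and 7 rose (75.8% of all genes). A total of 30 members (66.7%) lay within 0.5 of 0 on the log2 scale, as did 48.0% of all genes. A nearer background is the 7572 tested genes between the 10th and 90th percentile of the members' control levels. Of those genes 27.1% fell and 21.1% rose, 17.1% changed by at least 2-fold and 55% lay within 0.5 of 0. Summed over the members, the counts made up 5390, 5790 and 6106 CPM of the controls and 4879, 4670 and 4957 CPM of the MK5 siRNA libraries. Every MK5 siRNA library was thus below every control library in this sum, of which PSMD2 alone supplied between 13.6% and 15.9% in the controls.

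**Figure D1:**
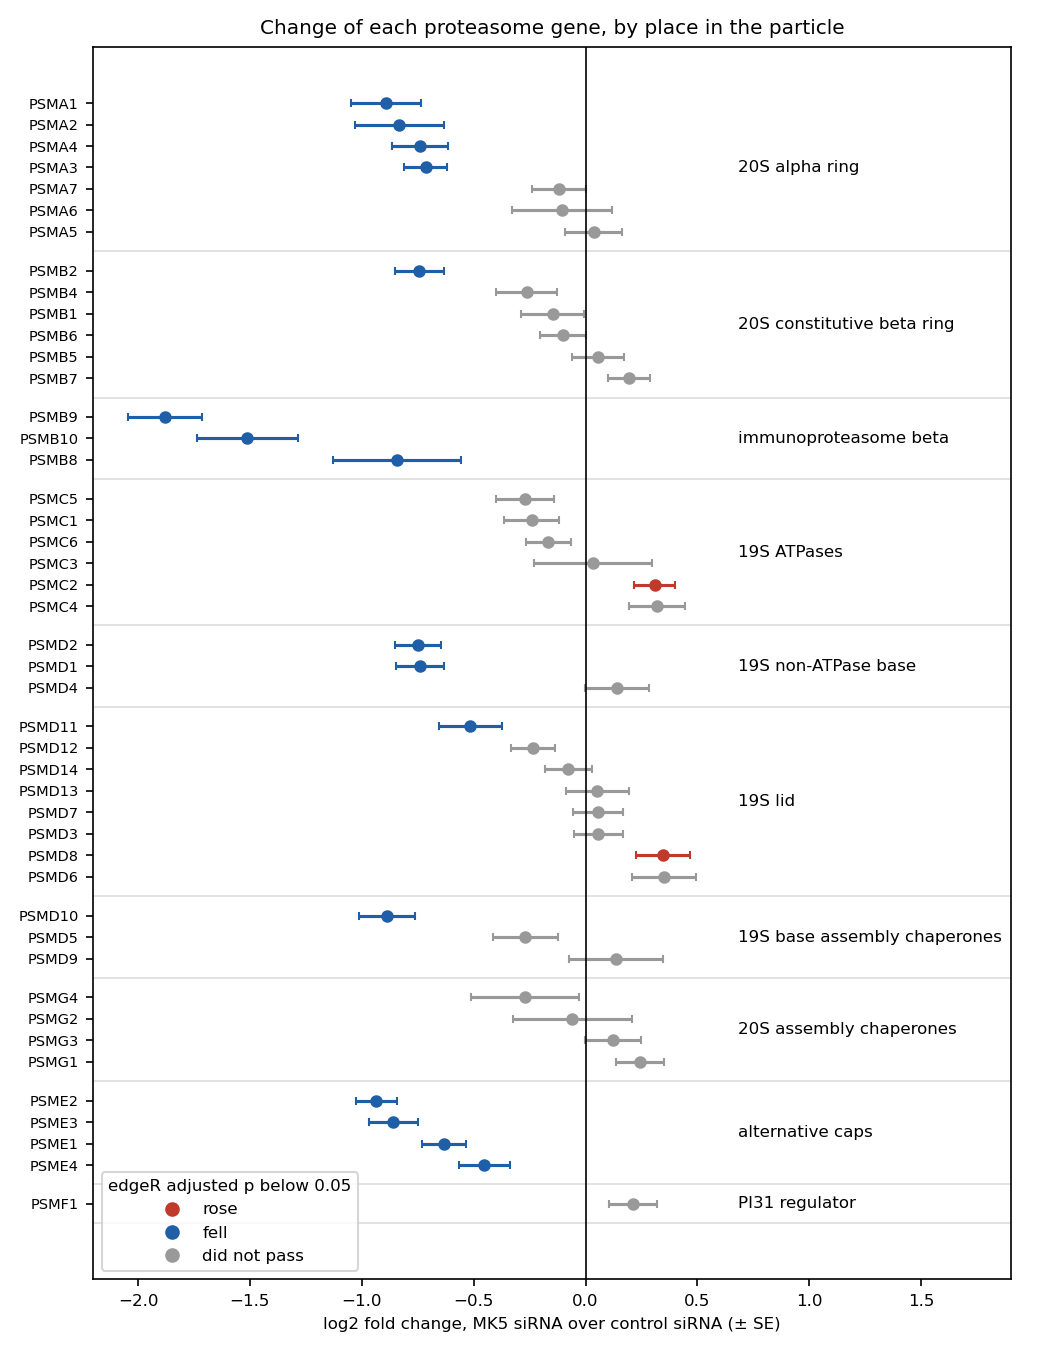
Log2 fold change of MK5 siRNA over control siRNA for each of the 45 proteasome genes, grouped by place in the particle (points: edgeR estimate; bars: ± SE; n = 3 libraries per group; blue, fell; red, rose; grey, did not pass). All 3 immunoproteasome subunits and all 4 alternative caps lie to the left of 0, while most ATPase and lid subunits lie within 0.5 of it.

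All 3 immunoproteasome subunits fell, and PSMB9 and PSMB10 had the largest falls of the 45 members. Over all genes tested 23.7% fell. The 5 blood cell markers, whose cells carry immunoproteasomes, summed to 0.498 to 2.89 CPM in the controls and 0.487 to 0.572 CPM after MK5 siRNA. Control replicates 1, 2 and 3 gave 0.192, 1.59 and 1.79 CPM of CD74 and 0.115, 0.553 and 0.914 CPM of HLA-DRA, and their means after MK5 siRNA were 0.0350 and 0.0694 CPM. CD14 went the other way, from a mean of 0.0383 to 0.246 CPM. PTPRC was at 0.160 and 0.162 CPM and CD3E at 0.0250 and 0.0228 CPM. None of the 5 had enough counts to be tested, and their part in the result was not tested. PSMB9 (ENSG00000240065), the replacement of PSMB6, was at 14.1, 18.5 and 16.2 CPM in the controls and at 4.12, 4.56 and 4.58 CPM after MK5 siRNA. The groups did not overlap, and the mean fell from 16.3 ± 2.19 to 4.42 ± 0.257 CPM (SD), by 3.68-fold (−1.88 ± 0.17, edgeR adjusted p = 0.000392). PSMB10 (ENSG00000205220), the replacement of PSMB7, measured 11.4, 16.3 and 17.6 CPM in the controls and 4.31, 6.05 and 5.49 CPM after MK5 siRNA. It fell by 2.85-fold (−1.51 ± 0.23, adjusted p = 0.00222), again without overlap. AC040162.1 shares 34.8% of the exon bases of PSMB10 on the same strand, so this change rests on the reads assigned to PSMB10.

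PSMB8 (ENSG00000204264), the replacement of PSMB5, behaved less evenly. Control replicates 1, 2 and 3 gave 37.2, 74.02 and 83.8 CPM, and MK5 siRNA gave 39.4, 34.4 and 34.9 CPM, so that control replicate 1 lay among the MK5 siRNA libraries. Its fall of −0.84 ± 0.28 passed narrowly (adjusted p = 0.0466). It was 0.08, −1.09 and −1.25 within replicate pairs 1, 2 and 3, on CPM with 0.5 added. With the replicate number as a block it did not pass (−0.77, adjusted p = 0.0983), nor did it without control replicate 2, control replicate 3 or any single MK5 siRNA replicate (adjusted p up to 0.133). Without replicate 1 in both groups it fell by −1.18 (edgeR adjusted p = 2.07e-11). That fit rests on replicates 2 and 3 alone, whose coefficient of variation was 4.63%, against 21.2% over all libraries. It called 75.8% of all genes, so its small p does not make the fall of PSMB8 firmer than the other fits do. Reads of PSMB8 and of its antisense neighbour PSMB8-AS1 cannot be told apart where their exons overlap, since the strand setting of the counting is not given. PSMB8-AS1 changed by −0.60 ± 0.41 and did not pass (adjusted p = 0.268), but fell without control replicate 1 (−0.93, adjusted p = 0.0103).

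The constitutive cutting subunits did not pass over all libraries. PSMB5, the chymotrypsin-like subunit, measured 142, 116 and 123 CPM in the controls and 136, 124 and 136 CPM after MK5 siRNA (0.06 ± 0.11). PSMB6, the caspase-like subunit, measured 116, 119 and 134 CPM against 116, 110.1 and 119 CPM (−0.10 ± 0.10). PSMB7, the trypsin-like subunit, measured 231, 212 and 225 CPM against 261, 245 and 258 CPM (0.19 ± 0.09, adjusted p = 0.130). Its groups did not overlap, and it rose without control replicate 1 (0.22, adjusted p = 0.0236). The ranges of PSMB5 and PSMB6 overlapped between the groups.

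**Figure D2:**
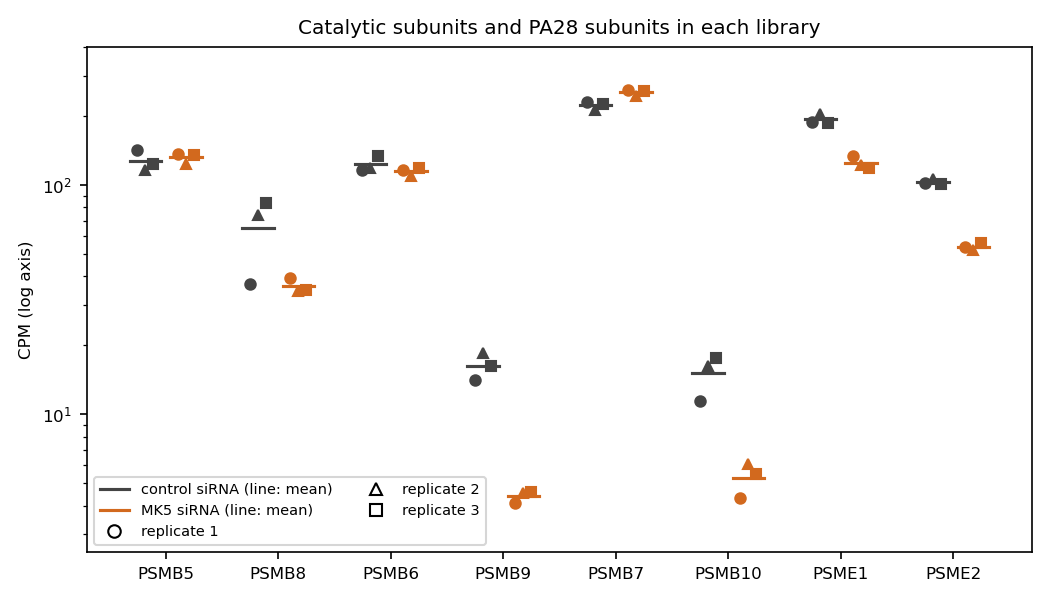
CPM (log axis) of the 3 constitutive cutting subunits, the immunoproteasome subunit that replaces each, and the PA28 subunits PSME1 and PSME2, with 1 point per library, shaped by replicate, and a line at the group mean. PSMB9, PSMB10, PSME1 and PSME2 are lower in all 3 MK5 siRNA libraries than in all 3 controls, and for PSMB8 control replicate 1 sits at the level of the MK5 siRNA libraries.

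The ratio of each immunoproteasome subunit to the subunit it replaces sets the pair side by side within each library. On the log2 scale, with 0.1 CPM added, PSMB9 over PSMB6 was −3.03, −2.68 and −3.04 in the controls and −4.78, −4.56 and −4.67 after MK5 siRNA, a difference of −1.75. PSMB10 over PSMB7 was −4.33, −3.70 and −3.67 against −5.89, −5.32 and −5.53, a difference of −1.68. For both ratios all MK5 siRNA libraries were below all controls (exact two-sided permutation p = 0.1 for each, the smallest that 3 against 3 libraries allow). PSMB8 over PSMB5 was −1.93, −0.64 and −0.55 against −1.79, −1.85 and −1.95. Its difference of −0.82 did not separate the groups (exact permutation p = 0.3), and it was −1.26 without control replicate 1. With the 3 ratios taken as a family, no Benjamini-Hochberg adjusted value can be below 0.1. Per kilobase of exon, PSMB8 stood in the controls at 30.1% of the level of PSMB5, PSMB9 at 6.23% of that of PSMB6 and PSMB10 at 6.53% of that of PSMB7. After MK5 siRNA these levels were 16.2%, 1.81% and 2.00%. The lengths join all annotated exons of a gene and are not those of a transcript, so the percentages depend on the gene models. In CPM, the control means were 65.0 for PSMB8 and 127 for PSMB5. They were 16.3 for PSMB9 and 123 for PSMB6, and 15.1 for PSMB10 and 223 for PSMB7.

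**Figure D3:**
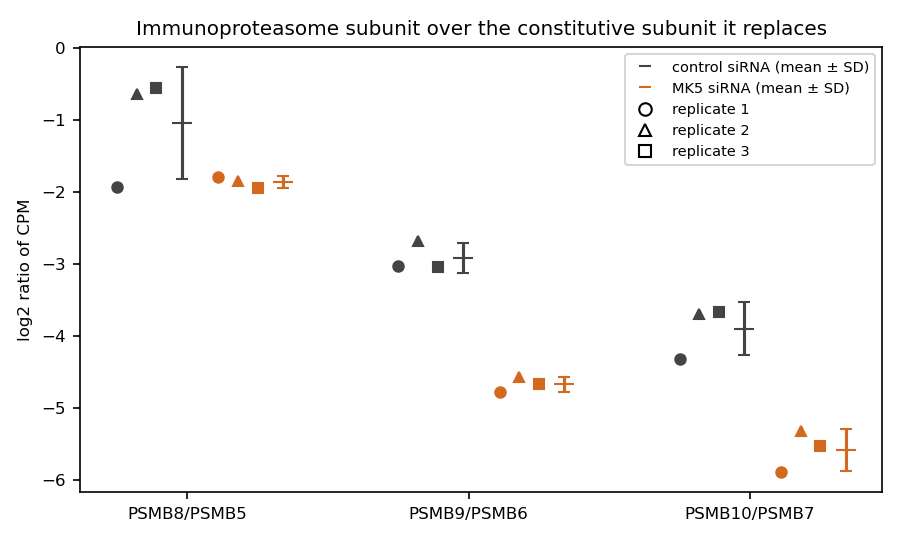
Log2 ratio of the CPM of each immunoproteasome subunit to that of the constitutive subunit it replaces, with 1 point per library, shaped by replicate, and the mean ± SD of 3 libraries beside the points. PSMB9/PSMB6 and PSMB10/PSMB7 lie wholly below the controls after MK5 siRNA, with differences of −1.75 and −1.68, and PSMB8/PSMB5 overlaps through control replicate 1.

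The alternative caps fell as well, all 4 of 4, where 23.7% of all genes tested fell. PSME2 (ENSG00000100911), the PA28 beta subunit, measured 102, 106 and 101 CPM in the controls and 53.8, 52.2 and 55.8 CPM after MK5 siRNA. It fell by 1.91-fold (−0.94 ± 0.09, adjusted p = 0.000530) with little spread in either group. PSME1 (ENSG00000092010), the PA28 alpha subunit, measured 189, 204 and 187 CPM against 134, 123 and 118 CPM, a fall of −0.63 ± 0.10 (adjusted p = 0.00275). Neither PA28 gene overlapped between the groups. PSME3 (ENSG00000131467), PA28 gamma, a nuclear cap that interferon does not induce, fell from 186 ± 15.6 to 103 ± 6.73 CPM (−0.86 ± 0.11, adjusted p = 0.00129). PSME4 (ENSG00000068878), the PA200 cap, fell by −0.45 ± 0.11 (adjusted p = 0.0162). Leaving out MK5 siRNA replicate 2 or 3 ended this call (adjusted p up to 0.0852).

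The promoters of PSMB8, PSMB10 and both PA28 genes hold a common word, which is shown because these 4 genes fell. That of PSMB9 does not hold it. Promoter windows from RefSeq (GRCh38.p14, 250 bases before to 50 after a start) were at hand for 39 of the 45 members, in 48 windows. The core of the interferon-stimulated response element, searched on both strands as GAAA, any 2 bases and GAAA again, was in 7 of these windows (14.6%) and in 3.57% of all 35116 windows. Each line gives 30 bases on the strand of the gene, with the matched word in capitals. In 5 of the 7 the word is GAAAGCGAAA or its reverse complement TTTCGCTTTC.
PSMB8 (chr6:32844032-32844061, minus strand): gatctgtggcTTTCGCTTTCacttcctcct
PSMB10 (chr16:67936852-67936881, minus strand): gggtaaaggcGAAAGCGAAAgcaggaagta
PSME1 (chr14:24136189-24136218, plus strand): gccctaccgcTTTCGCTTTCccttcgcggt
PSME2 (chr14:24146619-24146648, minus strand): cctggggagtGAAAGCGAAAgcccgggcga
PSMG4 (chr6:3258904-3258933, plus strand): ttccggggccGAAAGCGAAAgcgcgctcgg
PSMA4 (chr15:78540155-78540184, plus strand): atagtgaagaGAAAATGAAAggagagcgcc
PSMB4 (chr1:151399495-151399524, plus strand): tcgtctacagGAAAAAGAAAgaaatgacac

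Of these 7 genes, PSMB8, PSMB10, PSME1, PSME2 and PSMA4 fell, and PSMG4 and PSMB4 did not pass. The word begins 4 bases before the start of PSMB8, 21 before that of PSMB10, 28 before that of PSME2 and 33 before that of PSMG4, and 5 bases after that of PSME1. Of the 32 members with a window but no match, 11 fell. Over all 45 members 16 fell (35.6%), and 23.7% of all genes tested fell. All 6 words searched, this one included, were chosen after the values were seen. TGACNNNGC, the antioxidant response element that NFE2L1 and NFE2L2 bind, was in 29.2% of the members' windows and 13.3% of all windows, and of the 14 genes that hold it 6 fell and 8 did not pass. CCAAT was in 37.5% and 34.6%, TGACG in 37.5% and 24.6%, GGG, any 5 bases and CC in 62.5% and 58.7%, and TGACGTCA in 0 members' windows and 1.85% of all. All were searched on both strands. TGACG lies within TGACGTCA, and matches of different words may share bases. A match is a string of letters in a window, and binding was not measured.

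The ring of alpha subunits, which gates entry to the core, split into a group that fell and a group near 0. Of its 7 members 4 fell (57.1%), against 23.7% of all genes tested. PSMA1, PSMA2, PSMA3 and PSMA4 all fell, at −0.89 ± 0.16, −0.83 ± 0.20, −0.71 ± 0.10 and −0.74 ± 0.12 respectively (adjusted p from 0.00153 to 0.0133). PSMA5, PSMA6 and PSMA7 changed by 0.04 ± 0.13, −0.11 ± 0.22 and −0.12 ± 0.12 and did not pass. The best counted of the falling subunits, PSMA4 (ENSG00000041357), measured 149, 191 and 190.3 CPM in the controls and 106, 103 and 109 CPM after MK5 siRNA. PSMA3 (ENSG00000100567) measured 136, 131 and 136 CPM against 76.6, 83.01 and 86.2 CPM. PSMA1 (ENSG00000129084), the largest change of the ring, measured 13.6, 14.3 and 16.6 CPM against 8.32, 7.16 and 8.52 CPM. None of these 3 overlapped between the groups, while PSMA7, the most abundant, spanned 200.4 to 251 CPM in the controls and 193 to 223 CPM after MK5 siRNA. PSMA2 did not pass without MK5 siRNA replicate 2 or 3 (adjusted p up to 0.0690). PSMA7 fell without replicate 1 in both groups (−0.25, edgeR adjusted p = 0.00176), where 75.8% of all genes changed. Per kilobase of exon, PSMA1, PSMA2 and PSMA6 stood at only 4.50, 0.804 and 0.440 CPM in the controls, against 128 for PSMA7. Their places in the split are therefore uncertain.

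In the constitutive beta ring 1 of 6 measured members fell and the others did not pass. Thus 16.7% changed, against 46.2% of all genes tested. PSMB2 (ENSG00000126067), a structural subunit without a cutting site, measured 187, 159 and 166 CPM in the controls and 102, 96.3 and 107 CPM after MK5 siRNA. Its groups were well apart, and it fell by −0.74 ± 0.11 (adjusted p = 0.00206). The structural subunits PSMB1 and PSMB4 changed by −0.15 ± 0.14 and −0.26 ± 0.14 and did not pass. Without control replicate 1 PSMB4 fell by −0.38 (adjusted p = 0.00223) and PSMB1 by −0.26 (adjusted p = 0.0253).

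In the 19S base, the large scaffold subunits fell over all libraries while the ATPases did not. PSMD2 (ENSG00000175166), the scaffold that holds shuttle receptors and the most highly counted member, measured 855, 786 and 846 CPM in the controls and 462, 488 and 530 CPM after MK5 siRNA. PSMD1 (ENSG00000173692), the other large scaffold, measured 217, 208 and 217 CPM against 116, 130 and 139 CPM. Both groups were far apart for each gene, and the falls were alike in size, at −0.75 ± 0.10 (adjusted p = 0.00169) and −0.74 ± 0.11 (adjusted p = 0.00189). The third non-ATPase gene, PSMD4, a ubiquitin receptor, changed by 0.14 ± 0.14 and did not pass.

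Of the 6 ATPases, which form the unfolding ring, PSMC2 rose and 5 did not pass. Thus 16.7% changed, against 46.2% of all genes tested. Over all libraries and with no block, no ATPase fell in edgeR, at an unadjusted p below 0.05, in DESeq2 or in limma. With the replicate number as a block, 2 rose and 1 fell at an unadjusted edgeR p below 0.05, and no fall passed after adjustment. PSMC2 (ENSG00000161057) measured 116, 118 and 122 CPM in the controls and 149.8, 141 and 149 CPM after MK5 siRNA. Its rise of 0.31 ± 0.09 (adjusted p = 0.0281) did not pass without a filter on low counts, control replicate 2 or 3 or any single MK5 siRNA replicate (adjusted p up to 0.110). PSMC4 measured 78.2, 87.0 and 99.96 CPM against 102, 110.3 and 119 CPM (0.32 ± 0.13, adjusted p = 0.0743), without overlap, and passed with the replicate number as a block (0.33, adjusted p = 0.0416). PSMC3 measured 80.2, 155 and 172 CPM in the controls and 138, 138 and 142 CPM after MK5 siRNA, so that only control replicate 1 lay low. Its log2 fold change was 0.03 ± 0.26, and −0.23 without control replicate 1 (adjusted p = 0.0256). PSMC1, PSMC5 and PSMC6 lay between −0.27 and −0.17. They did not pass over all libraries and each fell without control replicate 1. In that fit 4419 of all genes fell, against 3186 over all libraries. Reads of PSMC1 are uncertain, since 75.8% of its exon bases overlap those of NRDE2 on the other strand.

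In the 19S lid, which removes ubiquitin chains, 1 of 8 genes fell, 1 rose and 6 did not pass. Thus 25% changed, against 46.2% of all genes tested. PSMD11 (ENSG00000108671), a scaffold subunit of the lid, measured 129, 163 and 178 CPM in the controls and 118, 104 and 108 CPM after MK5 siRNA. Its fall of −0.52 ± 0.14 (adjusted p = 0.0226) did not pass with the replicate number as a block (−0.50, adjusted p = 0.0508), nor without control replicate 2 or 3 or MK5 siRNA replicate 2 or 3 (adjusted p up to 0.0952). PSMD8 (ENSG00000099341), a lid scaffold, measured 169, 207 and 214 CPM against 252, 244 and 255 CPM. Its rise of 0.35 ± 0.12 was at the threshold (adjusted p = 0.0491), and did not pass with the block (0.35, adjusted p = 0.0581), with upper-quartile scaling, without a filter on low counts, or without control replicate 2 or 3 or any single MK5 siRNA replicate (adjusted p up to 0.140). PSMD6 changed by 0.35 ± 0.14 (adjusted p = 0.0815) and passed with the block (0.36, adjusted p = 0.0426) and without control replicate 1 (0.50, adjusted p = 0.00119). PSMD14, the deubiquitinating enzyme of the lid, changed by −0.08 ± 0.10. PSMD3, PSMD7, PSMD12 and PSMD13 lay between −0.24 and 0.06.

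Among the assembly factors, 1 of 3 chaperones of the 19S base fell and none of 4 PSMG chaperones passed. Over all genes tested 46.2% changed. PSMD10 (ENSG00000101843), gankyrin, a chaperone of the 19S base, measured 71.2, 59.02 and 57.97 CPM in the controls and 32.0, 32.9 and 36.8 CPM after MK5 siRNA. It fell by −0.89 ± 0.13 (adjusted p = 0.00188), with the groups apart. The base chaperones PSMD5 and PSMD9 changed by −0.27 ± 0.14 and 0.14 ± 0.21 and did not pass. PAAF1, a base chaperone without a PSM symbol, measured 20.2, 22.1 and 21.4 CPM against 8.32, 7.69 and 8.25 CPM and fell by −1.39 ± 0.13 (adjusted p = 0.000426). Of the PSMG chaperones, which assemble the alpha ring, none of 4 passed in edgeR, at an unadjusted p below 0.05, in DESeq2 or in limma. PSMG4 had the largest change of them, with 11.2, 19.6 and 21.07 CPM in the controls and 15.1, 14.01 and 13.8 CPM after MK5 siRNA (−0.27 ± 0.24). It fell by −0.50 without control replicate 1 (adjusted p = 0.00341). PSMG1, PSMG2 and PSMG3 lay between −0.06 and 0.24. POMP, which matures the beta ring, measured 96.2, 106 and 109 CPM against 61.9, 68.2 and 70.9 CPM and fell by −0.63 ± 0.11 (adjusted p = 0.00348). PSMF1, the PI31 regulator, measured 80.0, 94.9 and 95.4 CPM against 102, 107 and 104 CPM and did not pass (0.21 ± 0.11, adjusted p = 0.145). The other subunits without a PSM symbol, SEM1 of the lid and the ubiquitin receptor ADRM1, changed by −0.16 ± 0.10 and −0.14 ± 0.12 and did not pass, though SEM1 fell without control replicate 1 (−0.22, adjusted p = 0.0248).

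Levels differed widely among the members. Per kilobase of exon, in GENCODE 29 gene models matched by identifier, the control level was 152 CPM per kb in PSMD2, 128 in PSMA7 and 125 in PSMB7, with a median of 25.5 over the members. At the other end stood PSMA1 at 4.50, PSMG4 at 1.66, PSMA2 at 0.804, PSMD9 at 0.587, PSMA6 at 0.440 and PSMG2 at 0.163 CPM per kb. PSMA6 was counted at 2.68, 2.65 and 3.26 CPM in the controls, and PSMA7 of the same ring at 200.4, 222 and 251 CPM. These 6 genes, taken as those under 5 CPM per kb after the levels were seen, share between 14.1% and 34.6% of their exon bases with exons of other genes in those models. Among better counted members, PSMD2 shared none, PSMD7 30.7% and PSMC1 75.8%, so such sharing is not particular to the 6 genes. The shared bases of PSMD7, PSMC1, PSMG2 and PSMG4 lie on the other strand. The part of shared reads in the low counts of the 6 genes was not tested. Their fold changes rest on the reads that were assigned, and those of PSMA1 and PSMA2 are uncertain for that reason. PSMB10 shares 34.8% of its exon bases with AC040162.1 on the same strand, so its level and fold change are uncertain in the same way. The table also holds 31 rows of proteasome pseudogenes, 21 of them at 0 in every library and none above 3.80 CPM. PSMD4P1, a copy of PSMD4, rose by 1.49 ± 0.26 from 0.731 CPM, and reads could be split between such copies.

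Antisense genes named after members were described beside their partners. PSMG3-AS1 rose from 0.717 ± 0.196 to 5.18 ± 1.81 CPM (2.84 ± 0.37, adjusted p = 0.00143), while PSMG3 changed by 0.12 ± 0.13. PSMA3-AS1 was at 14.9 ± 2.88 and 22.2 ± 4.40 CPM (0.57 ± 0.21, adjusted p = 0.0648), while PSMA3 fell. With the replicate number as a block PSMA3-AS1 rose (0.57, adjusted p = 0.0152). PSMD6-AS2 rose by 0.93 ± 0.28 (adjusted p = 0.0309) from 0.572 CPM, and did not pass without any single library other than control replicate 1, in DESeq2 or without a filter on low counts. These antisense genes were chosen after their values were seen.

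Of 11 genes described here of immunoproteasome regulation and class I peptide loading, 4 fell, 1 rose and 6 did not pass, with a median of −0.14. Over all genes 23.7% fell and 22.5% rose, so 5 changed genes of 11 are near the 46.2% of all genes. IRF1, the interferon-induced activator of immunoproteasome genes, measured 67.9, 70.6 and 71.7 CPM in the controls and 33.7, 33.9 and 32.05 CPM after MK5 siRNA (−1.08 ± 0.09, adjusted p = 0.000388). NLRC5, the transactivator of class I genes, measured 33.02, 46.5 and 49.2 CPM against 14.6, 16.2 and 14.8 CPM (−1.50 ± 0.17, adjusted p = 0.000913). Both were apart in every library. TAP2, a peptide transporter subunit, fell by −1.23 ± 0.15 and the trimming peptidase gene ERAP2 by −0.94 ± 0.25, while its relative ERAP1 rose by 0.43 ± 0.10 (adjusted p from 0.00108 to 0.0186). The call of ERAP2 ended without control replicate 3 or any single MK5 siRNA replicate. That of ERAP1 ended without control replicate 3 or MK5 siRNA replicate 2 or 3. TAP1, the neighbour of PSMB9, measured 37.5, 38.1 and 38.8 CPM against 39.3, 32.8 and 31.7 CPM and did not pass (−0.14 ± 0.12). HLA-B, HLA-C and B2M did not pass either, at 0.01 ± 0.16, 0.14 ± 0.19 and 0.22 ± 0.14. Without replicate 1 in both groups, where 75.8% of all genes changed, TAP1 fell by −0.25 (edgeR adjusted p = 0.00498). In that fit HLA-B fell by −0.23 (adjusted p = 0.00131), and HLA-C and B2M did not pass. TAP1, HLA-B, HLA-C, B2M, ADRM1 and SEM1 were named after their values were seen.

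**Figure D4:**
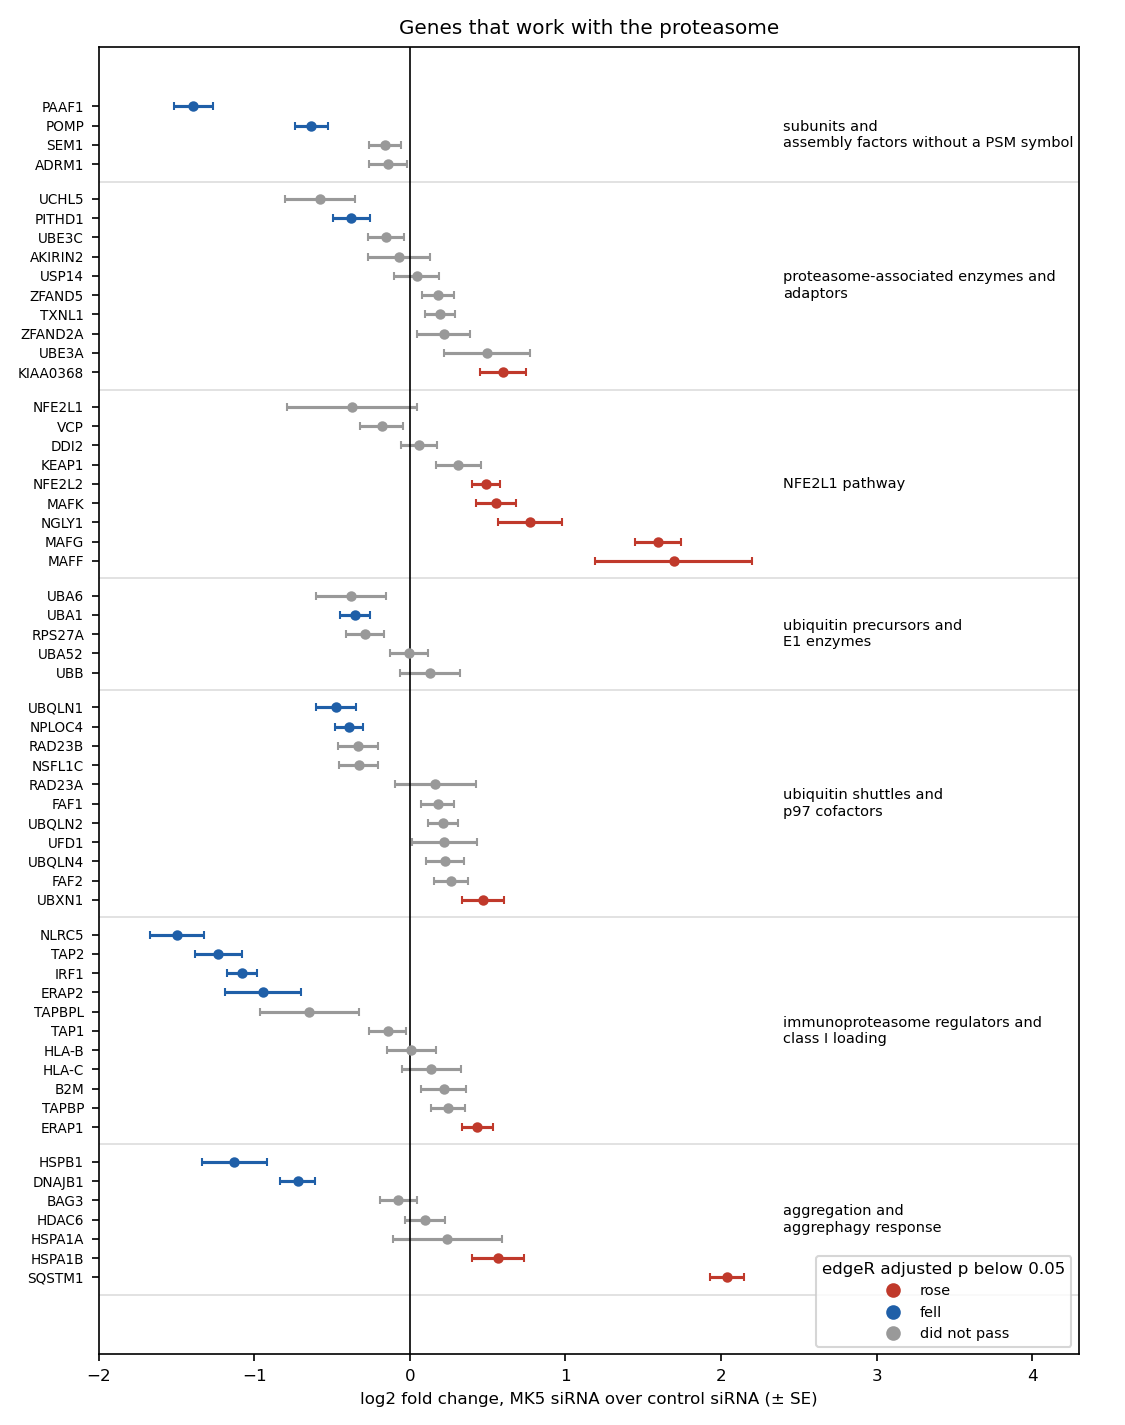
Log2 fold change of MK5 siRNA over control siRNA for genes that act with the proteasome, in 7 lists (points: edgeR estimate; bars: ± SE; n = 3 libraries per group; blue, fell; red, rose; grey, did not pass). SQSTM1, MAFG and MAFF lie farthest to the right, and NLRC5, PAAF1, TAP2, HSPB1 and IRF1 farthest to the left.

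Over all libraries, the changed genes around NFE2L1 rose. Of 9 genes of this list 5 rose and none fell in edgeR, at an unadjusted p below 0.05, in DESeq2 or in limma, and the median was 0.49, where 22.5% of all genes rose and 23.7% fell. NFE2L1 itself, the activator of subunit genes, gave 151, 497 and 507 CPM in the controls, in the order of replicates 1, 2 and 3, and 254, 324 and 316 CPM after MK5 siRNA. It did not pass over all libraries (−0.37 ± 0.42, adjusted p = 0.497), with 0.75, −0.62 and −0.68 within replicate pairs 1, 2 and 3, and control replicate 1 lay below every other library. Without that library NFE2L1 fell by −0.75 (adjusted p = 0.000673), so the count of no falls holds only with it. The small MAF partner MAFG measured 61.9, 48.2 and 50.5 CPM against 185, 149 and 151 CPM (1.59 ± 0.15, adjusted p = 0.000439). MAFF rose by 1.70 ± 0.50 (adjusted p = 0.0294), NGLY1, the deglycosylase that NFE2L1 needs, by 0.78 ± 0.21 (adjusted p = 0.0199), MAFK by 0.55 ± 0.13 (adjusted p = 0.0116) and NFE2L2 by 0.49 ± 0.09 (adjusted p = 0.00526). MAFF and NGLY1 did not pass when any single library other than control replicate 1 was left out, nor MAFK without control replicate 2 or 3 or MK5 siRNA replicate 2 or 3.

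In each of 3 further lists fewer genes changed than the 46.2% of all genes. Upstream of the proteasome, UBA1, the main E1 enzyme, fell by −0.35 ± 0.10 (adjusted p = 0.0224), and the other 4 of 5 ubiquitin precursor and E1 genes described here did not pass. Among 11 shuttle and p97 cofactor genes 1 rose, 2 fell and 8 did not pass. UBXN1, a p97 cofactor, rose by 0.47 ± 0.14, the shuttle gene UBQLN1 fell by −0.48 ± 0.13 and NPLOC4, a p97 adaptor, by −0.39 ± 0.09 (adjusted p from 0.0131 to 0.0265). Of 10 proteasome-associated enzymes and adaptors, KIAA0368, which encodes the ECM29 adaptor, rose by 0.60 ± 0.15 (adjusted p = 0.0151), PITHD1 fell by −0.38 ± 0.12 (adjusted p = 0.0367) and 8 did not pass. The calls of UBA1, UBXN1, UBQLN1, NPLOC4 and PITHD1 ended without MK5 siRNA replicate 2 or 3, UBXN1 and UBQLN1 also without replicate 1. That of KIAA0368 ended without MK5 siRNA replicate 1 or control replicate 2 or 3. Those of UBA1 and PITHD1 also ended without control replicate 2 or 3, that of PITHD1 without a filter on low counts, and that of UBXN1 with the replicate number as a block.

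In the list of 7 genes of the response to aggregated protein, 2 rose, 2 fell and 3 did not pass, against 46.2% of all genes changed. SQSTM1, the receptor that carries ubiquitinated protein to autophagy, measured 212, 184 and 193 CPM in the controls and 846, 764 and 806 CPM after MK5 siRNA (2.04 ± 0.11, adjusted p = 0.000178). HSPA1B, an inducible HSP70 gene with a near-identical copy in HSPA1A, rose by 0.57 ± 0.17 (adjusted p = 0.0294). Leaving out control replicate 2 or 3 or MK5 siRNA replicate 2 ended this call. The HSP40 gene DNAJB1 fell by −0.72 ± 0.11 and the small heat shock protein gene HSPB1 by −1.13 ± 0.21 (adjusted p = 0.00260 and 0.00536). The genes that changed in this list thus moved in both directions.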

How the data were processed

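RNA-seq of 6 libraries, 3 per group, was analysed. Per the submitters' processing notes the authors used FastQC, Trimmomatic 0.36, TopHat2 2.1.1 and HTSeq 0.9.1 with GRCh37. The sources used here do not give their order, settings, annotation release or strand setting. The deposited values are whole-number counts per gene, although the name of the table speaks of CPM. Low counts were filtered by filterByExpr of edgeR 4.0.16 (R 4.3.3; minimum count 10, minimum total 15), which left 13431 genes. edgeR scaled by TMM and ran the quasi-likelihood test, two-sided, with no block. The standard error is the log2 fold change over the square root of F. DESeq2 1.42.0 and limma 3.58.1 were alternatives. The scripts were tested on simulated data. Same-numbered libraries deviated together from their group means (correlations of 0.258, 0.206 and 0.248). Each is above 0.1, but so are values of unlike-numbered libraries given next, so these correlations do not establish pairing by number. The labels name no shared day. Replicate numbers were used as pairs only in the block alternative and in the differences within replicate pairs. The main test did not use them. Control 3 with MK5 siRNA 2, and control 2 with MK5 siRNA 3, correlated at 0.182 and 0.151, and replicate 1 of either group with replicates 2 and 3 of the other at −0.263 to −0.208. The pattern thus mainly sets replicate 1 apart. The common biological coefficient of variation was 21.2%, and 4.63% in replicates 2 and 3 alone, which sets the precision beside a depth of about 27188074 counts or more. Exon lengths, overlaps (GENCODE 29) and promoters (RefSeq) are of GRCh38, another build than that of the counts, and were joined by identifier or symbol. An exon length joins all annotated exons of a gene. Permutation tests used SciPy 1.17.1. Some genes of the lists are not reported here. The members and lists were chosen with earlier results of these data known. Values in every library are given for the cutting subunits, PSME1, PSME2, the largest passing rises and falls and the largest change of each class; in other lists up to 3 passing genes and those of small counts are named, with POMP, NFE2L1 and SQSTM1. Other genes with values in each library were chosen after their values were seen.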

Additional observations from a re-analysis of the deposited data

How the results depend on the processing

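Of the 18 members that changed, 12 passed under all 14 alternatives per gene, all of them falls, and 6 (PSMA2, PSMB8, PSMC2, PSMD8, PSMD11 and PSME4) did not pass under some; none changed direction. The count of falling members was 12 to 23 when single libraries were left out, and 27 without replicate 1 in both groups. That of rising members was 0 to 4 and 7, and 1 with upper-quartile scaling. It was 0 in edgeR without a filter on low counts (3 at an unadjusted p below 0.05; DESeq2 and limma each gave 2), and 0 when any single library other than control replicate 1 was left out (1 to 3 at an unadjusted p). Over all genes, 2064 to 4455 rose and 2103 to 4419 fell with single libraries left out, and 5195 and 5177 without replicate 1 in both groups; that fit also passed 16 of the 27 members that otherwise did not. The members' median ranged from −0.24 to −0.12 with single libraries left out. With the replicate number as a block, 14 members fell and 3 rose; PSMB8, PSMD11 and PSMD8 no longer passed, PSMC4 and PSMD6 passed, and no other member's call changed. Among the other genes named, the block ended the call of UBXN1 and PSMA3-AS1 passed. Without control replicate 1, NFE2L1, SEM1 and PSMB8-AS1 passed as falls.

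Signs changed in genes that did not pass over all libraries. Without replicate 1 in both groups the log2 fold change was −0.23 in PSMC3, −0.063 in PSMD13, −0.051 in PSMD3, −0.043 in PSMD7, −0.012 in PSMD4, −0.059 in PSMA5, −0.23 in HLA-B and −0.11 in HLA-C. With single libraries left out the values ranged from −0.23 to 0.23 in PSMC3, from −0.074 to 0.13 in PSMD13, from −0.074 to 0.081 in PSMA5, from −0.029 to 0.15 in PSMB5, from −0.012 to 0.13 in PSMD7, from −0.24 to 0.0058 in PSMA6, from −0.11 to 0.079 in HLA-B and from −0.036 to 0.25 in HLA-C. The cause was not tested. Leaving out single libraries kept the sign of the 3 subunit ratios, from −1.26 to −0.57 for PSMB8/PSMB5. Low counts limit PSMG2, at under 1 CPM.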
